A study of Homo sapiens with 6 samples.

Results

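The genes of this report are 37 chaperone and stress-response genes, 22 of the endoplasmic reticulum (ER) and its stress response and 15 of the cytosolic heat shock system. They were picked by symbol, and all 37 were present in the count tables, out of 27980 genes in all. The cells were RKO, a human line from a poorly differentiated colon carcinoma. In 3 RNA libraries they carried a lentiviral hairpin directed at TRIP6 (shTRIP6), which codes for an adaptor protein with LIM domains, and in 3 a scrambled hairpin (shControl). Cells of both groups were stably infected and kept in 5 µg/ml puromycin for 2 to 3 weeks, starting 36 h after infection, and the genotype label of shControl reads WT. The titles call the libraries of each group biological replicates. The labels name neither clones nor separate cultures and do not say how many TRIP6 hairpins were used, so p-values measure only the spread between these libraries.

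Proteins that enter the ER are folded by an Hsp70 chaperone, BiP, together with J-domain partners, an ER Hsp90, lectin chaperones and disulfide isomerases, and misfolded proteins are sent back to the cytosol for degradation. When unfolded proteins build up, the ER membrane sensors IRE1, ATF6 and PERK switch on the genes of this machinery, which is known as the unfolded protein response. In the cytosol, Hsp70 and Hsp90 with their co-chaperones do the folding, and the transcription factor HSF1 raises many of their genes after heat or other protein damage.

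Library totals were 31096598 to 32089298 counts in shTRIP6 and 29605764 to 30949334 counts in shControl, so the totals of the groups did not overlap. A single read came to 0.0314 to 0.0336 CPM, a count scaled to library size with TMM factors. TRIP6 itself stood at 19.8, 19.4 and 19.5 CPM in shTRIP6, against 73.9, 86.5 and 80.6 CPM in shControl, a log2 fold change of -2.04 (SE 0.071, adjusted p = 1.25e-14 in edgeR's quasi-likelihood test). Of 5 simple-epithelium markers 1, KRT19, was higher, and their counts were led by the keratin genes KRT8 and KRT18, while EPCAM was at 0 in all 6 libraries and CDH1 averaged 0.0212 CPM in shTRIP6 and 0.273 CPM in shControl. The 9 colonic markers summed to 0.0628 to 0.352 CPM in shTRIP6 and 0 to 0.129 CPM in shControl, with CDX1, VIL1, KRT20, GPA33 and FABP1 at 0 throughout and 0 of them tested. Of 8 fibroblast markers, 1 was higher and 4 were lower, and their sum was 17.2 to 19.0 CPM in shTRIP6 and 30.6 to 34.4 CPM in shControl, with DCN at 0 in shTRIP6. The 6 leukocyte markers, of which 2 could be tested and were higher, summed to 236 to 245 CPM in shTRIP6 and 187 to 236 CPM in shControl, nearly all of it CD68, with PTPRC and CD3E at 0 in shTRIP6. The 4 endothelial markers, of which 1 could be tested and was lower, summed to 0.224 to 0.282 CPM in shTRIP6 and 1.78 to 2.29 CPM in shControl, with PECAM1 at 0 in shTRIP6. The part of these lists in the differences below was not tested.

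How the folding systems of the ER and the cytosol stood when TRIP6 was depleted is the question put to shTRIP6 against shControl. Both systems were split, with members higher and members lower in nearly equal number and by small amounts. Genes called higher and lower over all genes tested were also nearly equal in number, as given below. Of the 22 ER members, 7 were higher, 10 were lower and 5 did not pass the threshold (edgeR quasi-likelihood test, Benjamini-Hochberg adjusted p under 0.05 over all 15473 genes tested). Of the 14 cytosolic members that could be tested, 7 were higher, 5 were lower and 2 did not pass. Over all genes tested 60.1% were called, 29.0% as higher and 31.2% as lower. Of the genes whose mean reached 10 CPM, as it did in all 36 members tested, 66.2% were called, 34.0% as higher and 32.2% as lower. Of those whose mean reached 100 CPM, 73.1% were called, against 21 of 25 members. In bulk RNA, fewer cells of a type and less RNA per cell cannot be told apart.

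Sizes were modest. The median log2 fold change was -0.08 over the ER members and 0.11 over the cytosolic members, beside 0.00 over all genes tested. The ER median was nearer 0 without shControl replicate 1 (-0.021) and under upper-quartile scaling (-0.032). The median size of the change, in either direction, was 0.25 on the log2 scale over the 36 members tested and 0.26 over the 10215 genes at 10 CPM or more. Only DNAJB9 among these 36 lay at 1.5-fold or more, where 29.6% of all genes tested and 18.0% of those at 10 CPM or more did so, and 12.0% of those at 100 CPM or more. The libraries of the 2 groups did not overlap for 29 of 36 members, for 65.3% of all genes tested and for 70.5% of those at 10 CPM or more.

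**Figure D1:**
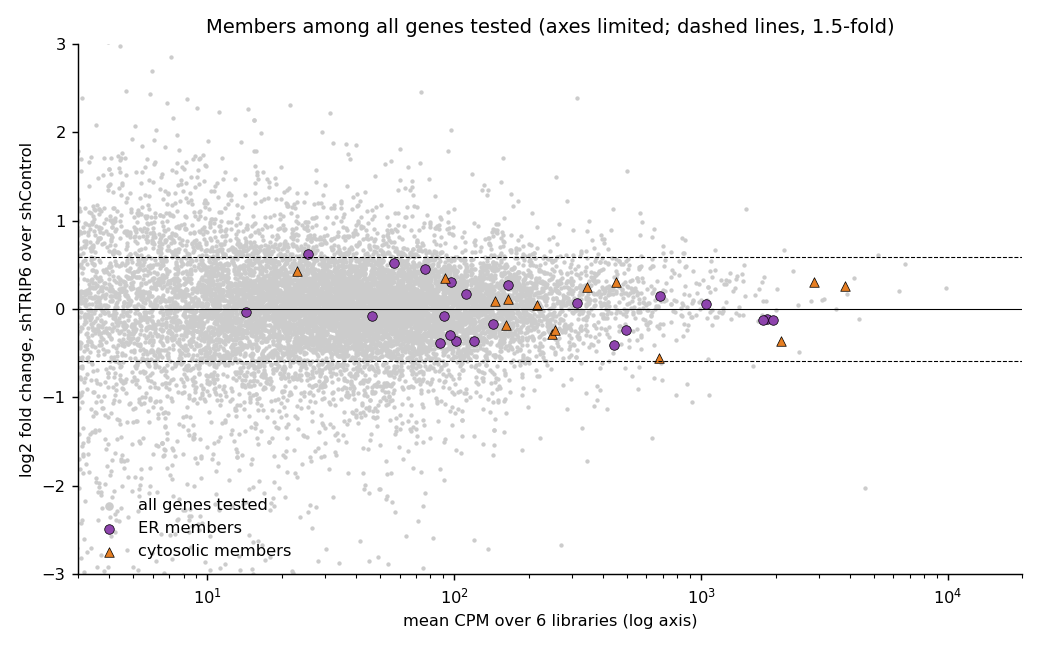
Log2 fold change of shTRIP6 over shControl (y axis) against mean CPM over the 6 libraries (x axis, log scale) for all genes tested in grey, ER members as circles and cytosolic members as triangles. The members spread on both sides of 0, and DNAJB9 alone lies beyond the dashed lines at 1.5-fold. Genes beyond the axes are not drawn.

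Several members carry short promoter words known from the stress responses, which are shown because genes with the same word lay on opposite sides of the comparison. RefSeq promoters (GRCh38.p14, 250 bases before to 50 after each start site) were found for 34 of the 37 members, in 48 windows, and not for PDIA3, FKBP4 and HSF1. The ER stress response element ERSE was searched on both strands as CCAAT and CCACG with any 9 bases between them. It lay in the windows of 7 ER members and no cytosolic member, and in 0.0916% of all 27305 genes with a window. Of these 7, CRELD2 and PDIA6 were higher, HSPA5, CALR, CANX and XBP1 were lower, and HSP90B1 did not pass. HSP90B1 holds another copy of the word that is not shown. Capitals mark the fixed letters of the word, and CGTGG with ATTGG is the same word read on the other strand.
CRELD2, chr22:49918539-49918587, plus strand: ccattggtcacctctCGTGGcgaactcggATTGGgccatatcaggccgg
PDIA6, chr2:10812848-10812876, minus strand: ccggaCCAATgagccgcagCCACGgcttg
HSPA5, chr9:125241376-125241424, minus strand: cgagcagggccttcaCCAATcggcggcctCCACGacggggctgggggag
CALR, chr19:12938369-12938417, plus strand: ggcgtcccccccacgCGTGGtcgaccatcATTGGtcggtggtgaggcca
CANX, chr5:179698773-179698801, plus strand: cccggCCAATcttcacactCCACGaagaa
XBP1, chr22:28800598-28800626, minus strand: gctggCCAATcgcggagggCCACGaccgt
HSP90B1, chr12:103930211-103930239, plus strand: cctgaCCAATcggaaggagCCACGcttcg

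The related word ERSE-II was searched on both strands as ATTGG and CCACG with any 1 base between them, which shares its CCAAT (as ATTGG) and CCACG blocks with ERSE at another spacing. It lay in the windows of SDF2L1, HERPUD1 and HYOU1, none of which held ERSE, and in 0.0696% of all genes with a window. SDF2L1 was higher, HERPUD1 was lower and HYOU1 did not pass. HYOU1 holds another copy of the word that is not shown.
SDF2L1, chr22:21642099-21642139, plus strand: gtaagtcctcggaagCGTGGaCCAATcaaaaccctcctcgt
HERPUD1, chr16:56932016-56932044, plus strand: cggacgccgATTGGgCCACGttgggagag
HYOU1, chr11:119057365-119057405, minus strand: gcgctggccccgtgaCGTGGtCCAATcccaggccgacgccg

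A heat shock element of 3 inverted repeats was searched on both strands as GAA, TTC and GAA with any 2 bases between neighbours. It lay in the windows of 5 cytosolic members and no ER member, and in 0.608% of all genes with a window. HSPA8 and HSP90AB1 were higher, and HSP90AA1, DNAJA1 and CHORDC1 were lower. The word in DNAJA1 lies after the start site, and CHORDC1 holds 3 overlapping copies, of which the middle is shown. HSP90AB1 and HSPA8 each hold another copy that is not shown. A match is only a run of letters in this window. Each word was searched without mismatches, so no match says nothing of imperfect copies in the window or of sites elsewhere.
HSP90AB1, chr6:44247763-44247805, plus strand: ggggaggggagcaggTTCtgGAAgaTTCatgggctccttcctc
HSPA8, chr11:123062346-123062374, minus strand: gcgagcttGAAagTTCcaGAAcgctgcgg
HSP90AA1, chr14:102087112-102087140, minus strand: gagggttcTTCcgGAAggTTCgggaggct
DNAJA1, chr9:33025268-33025296, plus strand: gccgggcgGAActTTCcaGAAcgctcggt
CHORDC1, chr11:90223084-90223112, minus strand: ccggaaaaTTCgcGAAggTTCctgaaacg

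In the ER Hsp70 system, 3 of 6 members were higher and 2 were lower. HSPA5 encodes BiP, the ER Hsp70 itself, and is annotated in GENCODE 29 (GRCh38) on chromosome 9 from 125234853 to 125241330 (minus strand). It stood at 1772, 1790.4 and 1772 CPM in the shTRIP6 libraries, against 1915, 1931 and 1904 CPM in the shControl libraries. The 3 shTRIP6 values all lay under the 3 shControl values, by a small step (log2 fold change of -0.11, SE 0.035, adjusted p = 0.0117). This call was lost without shTRIP6 replicate 1 (adjusted p = 0.0810), without shTRIP6 replicate 2 (0.0502) and under upper-quartile scaling (0.143), spanning 0.00224 to 0.143 in the alternatives.

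DNAJB9, the J-domain partner ERdj4, showed the largest fold change of the ER members. It stood at 28.6, 31.9 and 32.4 CPM in the shTRIP6 libraries, against 17.9, 19.8 and 22.6 CPM in the shControl libraries. The groups did not overlap (log2 fold change of 0.62, SE 0.092, adjusted p = 1.10e-05). DNAJB9 lies on chromosome 7 from 108569568 to 108574850 (plus strand), and its exons overlap, on the other strand, 99 bases of PNPLA8 and 183 bases of THAP5, whose counts came to 83.4% and 127.6% of its own. PNPLA8 had a log2 fold change of -0.27 and THAP5 of 0.07, and the labels do not say how reads in the overlaps were assigned.

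SDF2L1, which forms a complex with BiP and ERdj3, stood at 88.3, 91.9 and 82.5 CPM in the shTRIP6 libraries, against 56.4, 66.6 and 68.8 CPM in the shControl libraries. Every shTRIP6 library was above every shControl library (log2 fold change of 0.45, SE 0.070, adjusted p = 1.71e-05). DNAJB11, which encodes that ERdj3, went the other way, with 88.2, 86.9 and 92.8 CPM in the shTRIP6 libraries, against 118, 114 and 112 CPM in the shControl libraries (log2 fold change of -0.36, SE 0.052, adjusted p = 8.18e-06). The count ratio of SDF2L1 to DNAJB11 was 1.00, 1.06 and 0.889 in the shTRIP6 libraries, against 0.478, 0.585 and 0.616 in the shControl libraries. This and the other pairs below were chosen after their values were seen, and their ratios are a description with no test. Exons of DNAJB11 overlap 381 bases of TBCCD1 on the other strand, whose counts came to 9.07% of its own.

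DNAJC3, the J-domain protein p58IPK, was slightly higher, with 119, 113 and 119.8 CPM in the shTRIP6 libraries, against 108, 106 and 100.03 CPM in the shControl libraries (log2 fold change of 0.16, SE 0.052, adjusted p = 0.00997). HYOU1, the nucleotide exchange factor GRP170 of BiP, did not pass the test (log2 fold change 0.07, 95% interval -0.02 to 0.16, adjusted p = 0.188), although its shTRIP6 libraries, at 313.40 to 328.67 CPM, lay just above its shControl libraries, at 298.68 to 313.27 CPM. HSP90B1, the ER Hsp90 GRP94, averaged 1062 ± 58.5 CPM over the shTRIP6 libraries and 1019 ± 55.7 CPM over the shControl libraries with overlapping libraries (log2 fold change 0.06, 95% interval -0.04 to 0.16, adjusted p = 0.287). Without shControl replicate 1, HSP90B1 passed as higher (log2 fold change 0.10, adjusted p = 0.0230, spanning 0.0230 to 0.733 in the alternatives), and HYOU1 passed as higher under upper-quartile scaling (adjusted p = 0.0284, spanning 0.0284 to 0.431 in the alternatives).

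**Figure D2:**
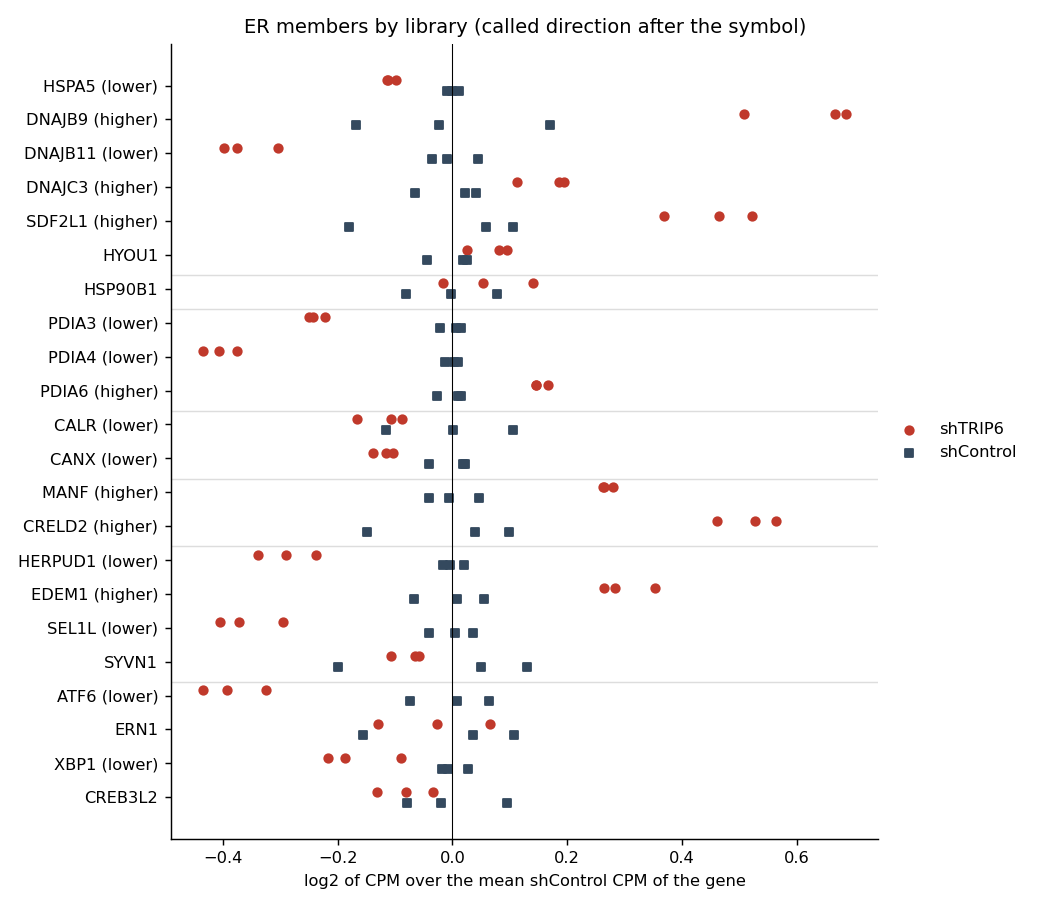
Log2 of each library's CPM over the gene's mean shControl CPM for the 22 ER members, ordered by role, with shTRIP6 libraries as circles above shControl libraries as squares. DNAJB9, CRELD2 and SDF2L1 lie farthest to the right, and PDIA4, ATF6, SEL1L and DNAJB11 farthest to the left.

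The 3 protein disulfide isomerases, which form and rearrange disulfide bonds, were divided. PDIA4, or ERp72, had the largest fall of the ER members, with 381, 389.6 and 374 CPM in the shTRIP6 libraries, against 501, 507 and 509 CPM in the shControl libraries (log2 fold change of -0.41, SE 0.040, adjusted p = 6.98e-08). PDIA4 lies on chromosome 7 from 149003062 to 149028641 (minus strand). PDIA3, or ERp57, which works with the lectin chaperones on glycoproteins, stood at 452, 460.2 and 454 CPM in the shTRIP6 libraries, against 542, 539.5 and 529 CPM in the shControl libraries (log2 fold change of -0.24, SE 0.039, adjusted p = 3.90e-05). In both genes the groups were well apart.

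PDIA6, the isomerase P5, was higher, with 713, 713 and 723 CPM in the shTRIP6 libraries, against 651, 649 and 633 CPM in the shControl libraries (log2 fold change of 0.15, SE 0.038, adjusted p = 0.00206). The count ratio of PDIA4 to PDIA6 was 0.535, 0.546 and 0.518 in the shTRIP6 libraries, against 0.770, 0.780 and 0.805 in the shControl libraries. Exons of PDIA6 overlap 1033 bases of ATP6V1C2 on the other strand. The counts of ATP6V1C2 came to 53.6% of those of PDIA6 and were also higher (log2 fold change 0.18, adjusted p = 0.000893), and the labels do not say how reads in the overlap were assigned.

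Both lectin chaperones, which hold glycoproteins during folding, were lower, at 92.1% of the shControl level for CANX and 92.0% for CALR. CANX, calnexin, stood at 1682, 1723 and 1709.6 CPM in the shTRIP6 libraries, against 1876, 1799 and 1879.7 CPM in the shControl libraries (log2 fold change of -0.12, SE 0.036, adjusted p = 0.00837). CALR, calreticulin, stood at 1913, 1888 and 1812 CPM in the shTRIP6 libraries, against 2188, 2036 and 1877 CPM in the shControl libraries (log2 fold change of -0.12, SE 0.047, adjusted p = 0.0340). Libraries of CALR overlapped between the groups, and those of CANX did not. The call of CANX was lost without shTRIP6 replicate 1 (adjusted p = 0.0777) and under upper-quartile scaling (0.0984), spanning 0.00181 to 0.0984 in the alternatives. That of CALR was lost under upper-quartile scaling and without any of the libraries but shControl replicate 3, with adjusted p of 0.0674 to 0.200 there and 0.00216 to 0.200 over all its alternatives.

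Both small proteins of the ER that are secreted under stress were higher. CRELD2 stood at 69.4, 67.6 and 64.6 CPM in the shTRIP6 libraries, against 42.3, 48.2 and 50.3 CPM in the shControl libraries, with no overlap (log2 fold change of 0.52, SE 0.068, adjusted p = 2.56e-06). MANF, a neurotrophic factor that also binds BiP, stood at 179.7, 179 and 182 CPM in the shTRIP6 libraries, against 149, 145 and 155 CPM in the shControl libraries (log2 fold change of 0.27, SE 0.046, adjusted p = 5.87e-05). The count ratio of CRELD2 to HSPA5, which share the ERSE word shown above, was 0.0392, 0.0378 and 0.0364 in the shTRIP6 libraries, against 0.0221, 0.0250 and 0.0264 in the shControl libraries. Exons of CRELD2 overlap 168 bases of ALG12 on the other strand, whose counts came to 50.1% of those of CRELD2, with a log2 fold change of 0.12 (adjusted p = 0.210).

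Among genes of ER-associated degradation, EDEM1, a lectin that speeds the disposal of misfolded glycoproteins, was higher, with 106, 105 and 111 CPM in the shTRIP6 libraries, against 83.3, 90.7 and 87.7 CPM in the shControl libraries (log2 fold change of 0.30, SE 0.053, adjusted p = 8.16e-05). SEL1L, the partner of the ubiquitin ligase HRD1, was lower, with 102, 104 and 110.1 CPM in the shTRIP6 libraries, against 138, 136 and 131 CPM in the shControl libraries (log2 fold change of -0.36, SE 0.051, adjusted p = 6.68e-06). HERPUD1, a membrane protein of the same ligase complex, was lower too, with 83.7, 89.8 and 86.6 CPM in the shTRIP6 libraries, against 107, 105 and 106 CPM in the shControl libraries (log2 fold change of -0.29, SE 0.051, adjusted p = 8.30e-05). The groups did not overlap for any of these 3 genes. SYVN1, which encodes HRD1, did not pass (log2 fold change -0.08, 95% interval -0.24 to 0.08, adjusted p = 0.408), and its exons overlap those of FAU on the same strand and MRPL49 on the other, whose counts came to 416% and 207% of its own and were higher (log2 fold changes of 0.55, adjusted p = 9.60e-07, and 0.49, adjusted p = 1.32e-07).

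Of the sensors and transcription factors of the ER, 0 were higher and 2 of 4 were lower in this test. ATF6, the sensor that is cut in the Golgi to release a transcription factor, stood at 75.2, 73.1 and 78.9 CPM in the shTRIP6 libraries, against 99.3, 93.8 and 103 CPM in the shControl libraries (log2 fold change of -0.38, SE 0.056, adjusted p = 9.38e-06). XBP1, whose mRNA is spliced by IRE1, stood at 130.2, 142 and 133 CPM in the shTRIP6 libraries, against 151, 149 and 154 CPM in the shControl libraries (log2 fold change of -0.16, SE 0.049, adjusted p = 0.00778). Counts per gene do not separate spliced from unspliced XBP1. The XBP1 call was lost without shTRIP6 replicate 1 (adjusted p = 0.0805, spanning 0.00207 to 0.0805 in the alternatives).

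ERN1, which encodes IRE1 alpha, stood at 14.2 ± 0.955 CPM over the shTRIP6 libraries and 14.5 ± 1.34 CPM over the shControl libraries (log2 fold change -0.03, 95% interval -0.25 to 0.20, adjusted p = 0.837). CREB3L2, a membrane-bound transcription factor of the secretory pathway, stood at 87.9 ± 2.97 CPM over the shTRIP6 libraries and 93.0 ± 5.77 CPM over the shControl libraries (log2 fold change -0.08, 95% interval -0.20 to 0.04, adjusted p = 0.227). Both had overlapping libraries, and neither passed. Leaving out shTRIP6 replicate 1 took the number of ER members called lower to 6, against 10 with all libraries, through the loss of HSPA5, CALR, CANX and XBP1, while 7 were called higher with and without it. Of the 37 members 12 have exons that overlap another gene of the tables, and the overlaps given beside genes are those whose other gene had over 5% of the member's counts, with that of HSP90AA1.

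As a share of all counts, the reads of the 22 ER members came to 0.945%, 0.946% and 0.952% in the shTRIP6 libraries, against 1.03%, 1.01% and 0.986% in the shControl libraries. Those of the 15 cytosolic members came to 1.18%, 1.18% and 1.19% in the shTRIP6 libraries, against 1.16%, 1.12% and 1.11% in the shControl libraries. The ER sum was thus lower and the cytosolic sum higher in every shTRIP6 library than in every shControl library. No p is given for these sums, in which the few most abundant genes weigh most.

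Among cytosolic Hsp70 genes, the stress-inducible gene was lower and the constitutive gene was higher. HSPA1A, the inducible Hsp70, stood at 559, 551 and 525 CPM in the shTRIP6 libraries, against 821, 809.9 and 771 CPM in the shControl libraries. This was the largest fall of all 36 members tested, with the groups well apart (log2 fold change of -0.55, SE 0.042, adjusted p = 1.64e-09). HSPA8, the constitutive HSC70, stood at 4181, 4165 and 4161 CPM in the shTRIP6 libraries, against 3590.4, 3357 and 3464 CPM in the shControl libraries (log2 fold change of 0.26, SE 0.035, adjusted p = 2.86e-06). The count ratio of HSPA1A to HSPA8 was 0.134, 0.132 and 0.126 in the shTRIP6 libraries, against 0.229, 0.241 and 0.222 in the shControl libraries.

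HSPA1B, a near-identical copy of HSPA1A, was listed at 0 counts in all 6 libraries, and was not tested. HSPA1A lies on chromosome 6 from 31815464 to 31817946 (plus strand) and HSPA1B on the same strand from 31827735 to 31830255. Of the distinct 50-base words in protein-coding HSPA1A transcripts, 71.3% also occur in HSPA1B, against 0% in HSPA8. How reads shared by the copies were assigned is not stated, so the HSPA1A value is uncertain, and why HSPA1B was at 0 was not tested. RNF5, ATF6B and BAG6, genes of the pathway lists that lie between 31639028 and 32180793 of the same chromosome with HSPA1B, were also at 0 in all 6 libraries. HSPA1A, in the same stretch, had 16315 to 25228 counts.

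Cytosolic Hsp90 genes showed the same arrangement. HSP90AA1, the stress-inducible isoform, lies on chromosome 14 from 102080738 to 102139699 (minus strand) and stood at 1835, 1796 and 1899 CPM in the shTRIP6 libraries, against 2471, 2379 and 2277 CPM in the shControl libraries (log2 fold change of -0.37, SE 0.039, adjusted p = 2.06e-07). HSP90AB1, the constitutive isoform, lies on chromosome 6 from 44246166 to 44253888 (plus strand) and stood at 3153, 3196 and 3170.4 CPM in the shTRIP6 libraries, against 2548, 2561 and 2586 CPM in the shControl libraries (log2 fold change of 0.31, SE 0.033, adjusted p = 2.48e-07). The groups did not overlap for either gene. Their count ratio was 0.582, 0.562 and 0.599 in the shTRIP6 libraries, against 0.970, 0.929 and 0.881 in the shControl libraries. The transcripts of HSP90AA1 and HSP90AB1 share 0% of their 50-base words, and exons of HSP90AA1 overlap 197 bases of WDR20 on the other strand, whose counts came to 1.00% of its own.

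**Figure D3:**
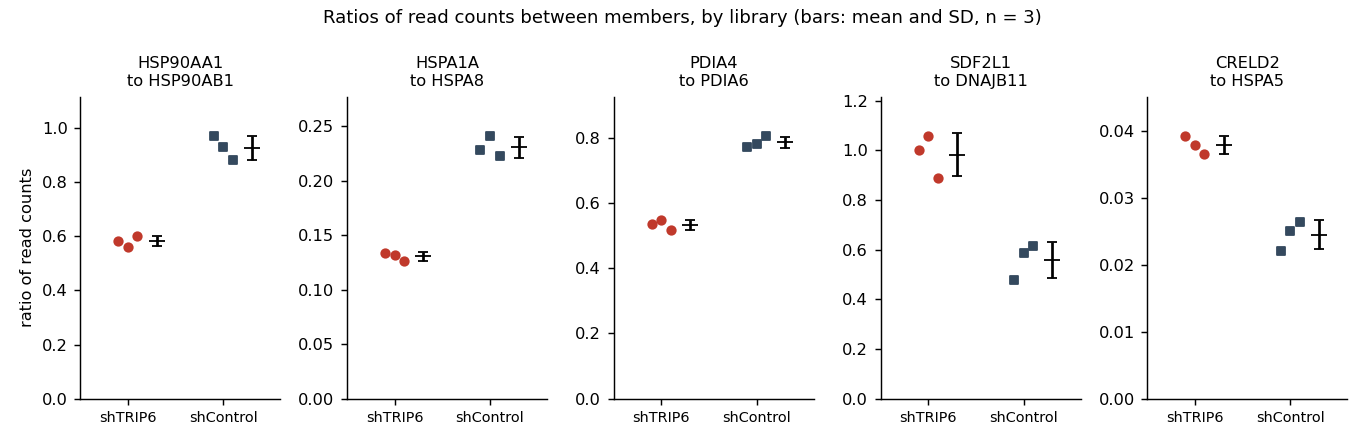
Ratio of read counts between members in each library, with shTRIP6 (circles) left of shControl (squares) and the mean and SD of 3 libraries beside them. HSP90AA1 to HSP90AB1, HSPA1A to HSPA8 and PDIA4 to PDIA6 are lower in shTRIP6, while SDF2L1 to DNAJB11 and CRELD2 to HSPA5 are higher, in pairs that were chosen after their values were seen.

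Nucleotide exchange factors of the Hsp110 family went 3 ways. HSPA4 was lower, with 223, 223 and 228 CPM in the shTRIP6 libraries, against 274, 285 and 260.3 CPM in the shControl libraries (log2 fold change of -0.28, SE 0.046, adjusted p = 3.58e-05). HSPA4L was higher, with 26.6, 27.0 and 25.8 CPM in the shTRIP6 libraries, against 22.2, 19.1 and 17.5 CPM in the shControl libraries (log2 fold change of 0.43, SE 0.092, adjusted p = 0.000483). HSPH1 did not pass (log2 fold change 0.05, 95% interval -0.04 to 0.14, adjusted p = 0.340), though its shTRIP6 libraries, at 216 to 224 CPM, all lay above its shControl libraries, at 211 to 213 CPM.

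The 2 J-domain partners of cytosolic Hsp70 moved apart. DNAJB1 was higher, with 502, 503 and 498 CPM in the shTRIP6 libraries, against 394, 411 and 408 CPM in the shControl libraries (log2 fold change of 0.31, SE 0.040, adjusted p = 2.50e-06). DNAJA1 was lower, with 237, 235 and 236 CPM in the shTRIP6 libraries, against 288, 279 and 266 CPM in the shControl libraries (log2 fold change of -0.23, SE 0.045, adjusted p = 0.000180). Neither gene had overlapping groups, and exons of DNAJB1 overlap 211 bases of TECR on the other strand, whose counts came to 24.9% of its own and were lower (log2 fold change -0.37, adjusted p = 9.07e-06). BAG3, an exchange factor that links Hsp70 to autophagy, overlapped between the groups and did not pass (log2 fold change 0.10, 95% interval -0.03 to 0.22, adjusted p = 0.164). It passed as higher without shControl replicate 1 (log2 fold change 0.17, adjusted p = 0.00181) and under upper-quartile scaling (0.14, adjusted p = 0.0429), spanning 0.00181 to 0.571 in the alternatives.

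Of the Hsp90 co-chaperones, CHORDC1 was called lower, with 152, 148 and 158 CPM in the shTRIP6 libraries, against 193, 169 and 155 CPM in the shControl libraries, and its libraries overlapped (log2 fold change of -0.18, SE 0.063, adjusted p = 0.0204). FKBP4, the immunophilin FKBP52 of steroid receptor complexes, was called higher, with 167, 177 and 169 CPM in the shTRIP6 libraries, against 153, 161 and 159 CPM in the shControl libraries (log2 fold change of 0.12, SE 0.047, adjusted p = 0.0400). These were the least stable cytosolic calls. Without the first shTRIP6 library that of CHORDC1 missed the threshold (adjusted p = 0.0798), as it did without shTRIP6 replicate 2 (0.106) and without shControl replicate 1 (0.0868), and under upper-quartile scaling (0.0848), spanning 0.00163 to 0.106 in the alternatives. That of FKBP4 missed it without shTRIP6 replicate 2 (adjusted p = 0.171) and without shControl replicate 1 (0.0538) or 3 (0.0616), with no scaling factor (0.0654) and with the replicate number as a block (0.0588), spanning 0.00534 to 0.171 in the alternatives.

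HSPB1, the small heat shock protein Hsp27, was higher, with 397, 381 and 348 CPM in the shTRIP6 libraries, against 323, 301 and 327 CPM in the shControl libraries (log2 fold change of 0.24, SE 0.051, adjusted p = 0.000422). HSF1, the transcription factor of the heat shock response, was higher as well, with 108, 105 and 93.6 CPM in the shTRIP6 libraries, against 78.7, 83.1 and 79.5 CPM in the shControl libraries (log2 fold change of 0.35, SE 0.059, adjusted p = 5.51e-05). In both genes shTRIP6 replicate 3 was the lowest of its group and still lay above every shControl library. Exons of HSF1 overlap 139 bases of DGAT1 on the other strand, whose counts came to 39.5% of its own and were higher (log2 fold change 0.64, adjusted p = 4.61e-07).

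**Figure D4:**
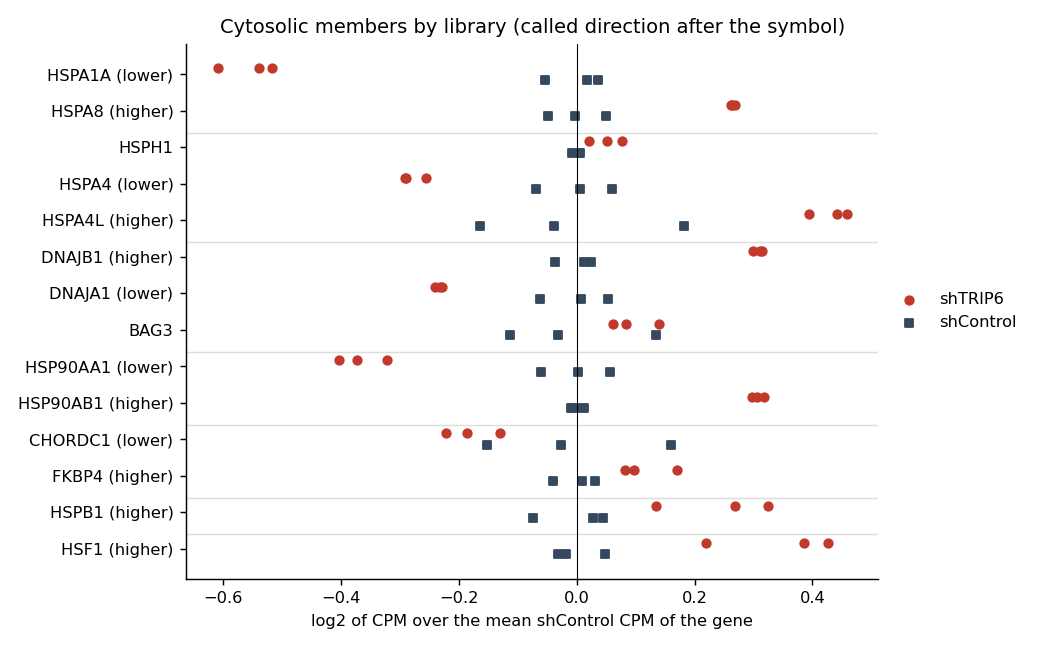
Log2 of each library's CPM over the gene's mean shControl CPM for the 14 cytosolic members tested, ordered by role, with shTRIP6 libraries as circles above shControl libraries as squares. HSPA1A, HSP90AA1 and HSPA4 lie to the left of 0, and HSPA4L, HSF1, DNAJB1, HSP90AB1 and HSPA8 to the right.

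Levels were compared between genes as CPM per kilobase of merged GENCODE 29 exons, which counts every annotated exon, used in these cells or not. In the ER, CALR was highest, at 689 ± 19.3 in shTRIP6 and 749 ± 57.4 in shControl (mean ± SD, n = 3 each), followed by HSPA5 at 455 ± 2.71 in shTRIP6 and 490.4 ± 3.54 in shControl and CANX at 273 ± 3.41 in shTRIP6 and 297 ± 7.29 in shControl. ERN1 was lowest, at 1.30 ± 0.0879 in shTRIP6 and 1.33 ± 0.123 in shControl. The 7 most abundant ER members held the same order in both groups, and DNAJB9 stood 18th of 22 in shTRIP6 and 21st in shControl. Neighbours were not always apart: SEL1L, at 11.0 ± 0.431 in shTRIP6 and 14.1 ± 0.377 in shControl, and DNAJB9, at 10.9 ± 0.725 in shTRIP6 and 7.09 ± 0.838 in shControl, differed by less than their SD in shTRIP6.

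Of the cytosolic genes on this per-kilobase scale, HSP90AB1 was highest, at 1065 ± 7.26 in shTRIP6 and 861 ± 6.48 in shControl, then HSPA8 at 859.8 ± 2.13 in shTRIP6 and 716 ± 24.1 in shControl and HSP90AA1 at 351 ± 9.97 in shTRIP6 and 453 ± 18.4 in shControl. HSPA1A stood at 219 ± 7.31 in shTRIP6 and 322 ± 10.6 in shControl and HSPB1 at 229.7 ± 15.3 in shTRIP6 and 194 ± 8.59 in shControl, so HSPA1A was the 5th of 15 in shTRIP6 and the 4th in shControl. In shTRIP6 these 2 genes differed by less than the SD of HSPB1. HSPA4L, at 2.28 ± 0.0521 in shTRIP6 and 1.69 ± 0.208 in shControl, was lowest apart from HSPA1B.

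**Figure D5:**
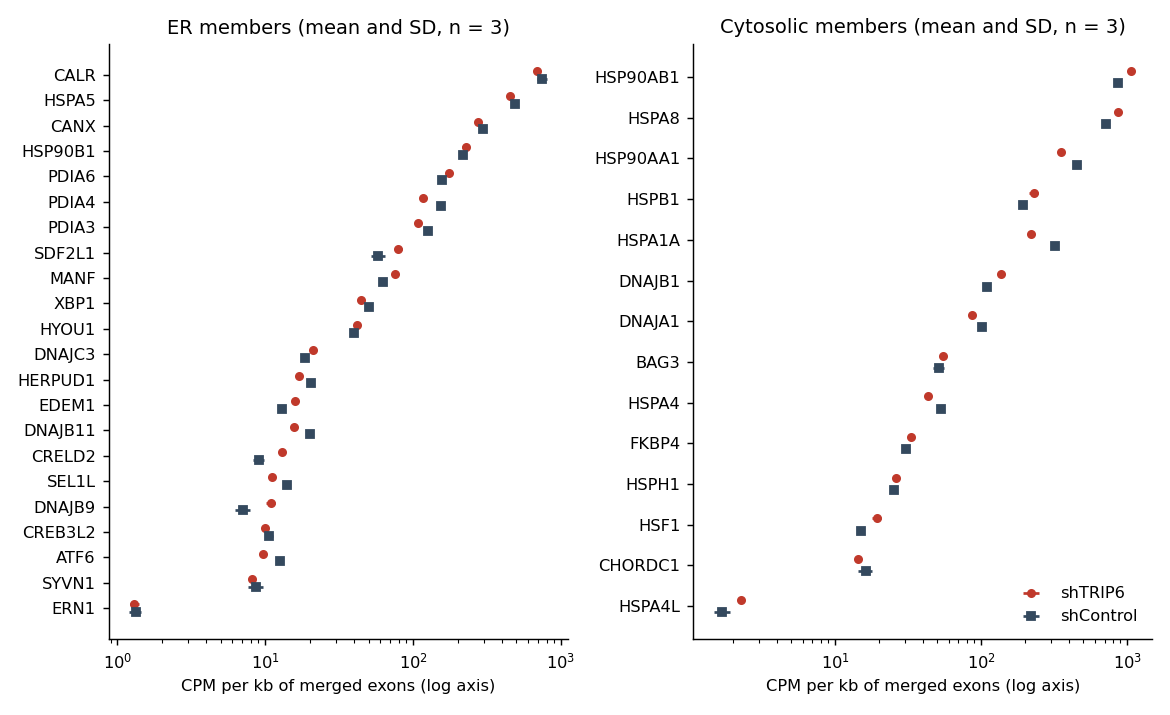
CPM per kilobase of merged exons (x axis, log scale) for the ER members (left) and the cytosolic members (right) in shTRIP6 (circles) and shControl (squares), as mean and SD of 3 libraries, ordered by the shTRIP6 level. CALR and HSP90AB1 head the lists, and the distance between the groups is small against the distance between genes.

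Other genes of the same pathways were read from hand-written lists, and each list is shown by up to 2 rises and 2 falls that passed the test at 1 CPM or more. Their medians stand beside 0.00 over all genes tested. Their calls stand beside 29.0% higher and 31.2% lower over all genes tested, or 34.0% and 32.2% of genes at 10 CPM or more. Of 22 tested further genes of ER-associated degradation, 8 were higher and 6 were lower, with a median log2 fold change of -0.03. MAN1B1, an ER mannosidase, was lower, at 56.4 ± 1.89 CPM over the shTRIP6 libraries and 140.1 ± 3.05 CPM over the shControl libraries (log2 fold change of -1.31, SE 0.052, adjusted p = 1.01e-13). ERLEC1, a lectin gene, was higher, at 73.0 ± 3.62 CPM over the shTRIP6 libraries and 58.7 ± 3.05 CPM over the shControl libraries (log2 fold change of 0.31, SE 0.061, adjusted p = 0.000210). UBXN4, a partner of the ATPase p97 at the ER, had a log2 fold change of -0.22.

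Of 27 tested genes of ER oxidative folding and prolyl isomerization, 10 were higher and 7 were lower, with a median log2 fold change of 0.04. SERPINH1, the collagen chaperone Hsp47, stood at 119 ± 1.87 CPM over the shTRIP6 libraries and 327 ± 2.96 CPM over the shControl libraries (log2 fold change of -1.46, SE 0.044, adjusted p = 1.41e-15). This left 36.4% of its shControl level, a larger change than that of any member. QSOX2, a sulfhydryl oxidase gene, stood at 55.2 ± 0.598 CPM over the shTRIP6 libraries and 115 ± 2.86 CPM over the shControl libraries (log2 fold change of -1.06, SE 0.053, adjusted p = 2.81e-12). The oxidoreductase gene ERO1B, which reoxidizes disulfide isomerases, was higher, at 21.8 ± 1.85 CPM over the shTRIP6 libraries and 11.6 ± 1.83 CPM over the shControl libraries (log2 fold change of 0.91, SE 0.114, adjusted p = 1.42e-06), and FKBP11, a prolyl isomerase of the ER, had a log2 fold change of 0.84. Exons of FKBP11 overlap 58 bases of CCDC65, whose counts came to 17.1% of its own.

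Of 26 tested genes of the translocon, signal peptidase and translocon-associated proteins, 12 were higher and 5 were lower, with a median log2 fold change of 0.17. SSR3, a subunit of the translocon-associated complex, stood at 541 ± 8.46 CPM over the shTRIP6 libraries and 364 ± 3.15 CPM over the shControl libraries (log2 fold change of 0.57, SE 0.040, adjusted p = 4.90e-10). SIL1, another exchange factor of BiP, had a log2 fold change of 0.45, the translocon gene SEC62 of -0.34 and SRP72, part of the signal recognition particle, of -0.26. Exons of SIL1 overlap those of MATR3 on the other strand, whose counts came to 1492% of its own.

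Of 13 tested further sensors and factors of the ER, 4 were higher and 4 were lower, with a median log2 fold change of 0.13. CREB3L3, a membrane-bound transcription factor best known from liver, stood at 0.372 ± 0.131 CPM over the shTRIP6 libraries and 16.6 ± 3.16 CPM over the shControl libraries (log2 fold change of -5.47, SE 0.229, adjusted p = 2.12e-13). WFS1, which encodes the ER membrane protein wolframin, stood at 19.7 ± 2.61 CPM over the shTRIP6 libraries and 39.5 ± 0.724 CPM over the shControl libraries (adjusted p = 1.26e-08). CREB3L1, which drives collagen and secretory genes, had a log2 fold change of 0.52 and its relative CREB3 of 0.27. Exons of CREB3 overlap those of TLN1 on the other strand, whose counts came to 732% of its own.

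Of the 15 genes of the ATF4 and CHOP branch, which PERK feeds, 4 were higher and 8 were lower, with a median log2 fold change of -0.13. ATF4 itself was lower (log2 fold change -0.23, adjusted p = 0.00032). Neither DDIT3, which encodes CHOP (0.14, adjusted p = 0.194), nor EIF2AK3, which encodes PERK (-0.21, adjusted p = 0.0922), was called. ASNS, asparagine synthetase, stood at 93.5 ± 4.45 CPM over the shTRIP6 libraries and 50.4 ± 2.27 CPM over the shControl libraries (log2 fold change of 0.89, SE 0.059, adjusted p = 2.30e-10), and NUPR1, which encodes a small stress-induced nuclear protein, at 0.160 ± 0.0852 CPM over the shTRIP6 libraries and 8.64 ± 1.43 CPM over the shControl libraries (log2 fold change of -5.73, SE 0.298, adjusted p = 6.06e-12). TRIB3, a pseudokinase gene induced by CHOP, had a log2 fold change of 0.40 and VLDLR, a lipoprotein receptor gene, of -1.40. Exons of VLDLR overlap 738 bases of VLDLR-AS1, whose counts came to 4.07% of its own.

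Of 35 tested further co-chaperones and Hsp70 genes, most but not all of the cytosol, 11 were higher and 13 were lower, with a median log2 fold change of 0.05. HSPA2, an Hsp70 gene best known from testis, stood at 23.9 ± 1.04 CPM over the shTRIP6 libraries and 10.1 ± 0.457 CPM over the shControl libraries (log2 fold change of 1.24, SE 0.094, adjusted p = 1.61e-09). DNAJB6, a J-domain protein that holds back aggregation, stood at 447 ± 1.55 CPM over the shTRIP6 libraries and 242 ± 9.42 CPM over the shControl libraries (log2 fold change of 0.89, SE 0.044, adjusted p = 2.44e-12). BAG1, an exchange factor of Hsp70, was lower, at 28.6 ± 0.874 CPM over the shTRIP6 libraries and 61.8 ± 5.89 CPM over the shControl libraries (log2 fold change of -1.11, SE 0.075, adjusted p = 2.58e-10), and BAG5 had a log2 fold change of -0.70. Exons of BAG5 overlap those of KLC1 on the other strand, whose counts came to 104% of its own.

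Only 2 of 10 further small heat shock protein genes had enough counts to be tested. HSPB8, the partner of BAG3, stood at 0.796 ± 0.209 CPM over the shTRIP6 libraries and 12.0 ± 0.899 CPM over the shControl libraries, or 6.62% of its shControl level (log2 fold change of -3.91, SE 0.196, adjusted p = 3.24e-12). A list of other heat shock factors and the HSF1-binding protein HSBP1 had 3 tested genes, of which 2 were called higher. The factor HSF4 was not called (log2 fold change 0.05, adjusted p = 0.881). HSF2, which can form trimers with HSF1, had a log2 fold change of 0.27 (adjusted p = 0.0294) and HSBP1, a binding protein of HSF1, of 0.16 (adjusted p = 0.0201). HSF2 missed the threshold without shTRIP6 replicate 1 (adjusted p = 0.0898) or 3 (0.105), without shControl replicate 3 (0.135) and in DESeq2 (0.0543), spanning 0.0119 to 0.135 in the alternatives. The HSBP1 call was lost without shTRIP6 replicate 2 (0.103), spanning 0.00351 to 0.103 in the alternatives.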

How the data were processed

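For each of 6 libraries the authors deposited whole-number read counts by gene symbol, with no normalization. Per the submitters' processing notes, TopHat2, edgeR, limma and hg38 were used, with no role or version named. For the counting tool, its annotation and strand, nothing is given in the sources used here. Labels gave the groups and replicate numbers, and 0 columns of other samples were present. The quasi-likelihood test of edgeR 4.0.16 (R 4.3.3; TMM scaling, filterByExpr, a model of group alone) was run on these counts for 15473 genes. Benjamini-Hochberg adjusted p under 0.05 was called. The ± after a mean is an SD (n = 3 libraries), and the SE of a log2 fold change is the fold change divided by the square root of F. Intervals are 95%. The floor of a gene at 0 was 3 counts, or 0.0941 to 0.101 CPM in a library, and covers counting error only. Replicate pairs differed beyond sampling noise (chi-square per degree of freedom 3.05 to 11.7). Highest were the pairs of shControl replicate 1 with shControl replicates 2 and 3 (10.7 and 11.7), and the other pairs within a group lay at 3.05 to 4.81.

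Members, lists and compartments were chosen with earlier results of these data known, and the CPM bounds on the background and the count ratios after seeing the data. Named were all 37 members and, per list, up to 2 rises and 2 falls with a mean of 1 CPM or more; a gene that the rule takes is not reported here. Coordinates, exon overlaps and lengths came from GENCODE 29 (GRCh38) and promoters from RefSeq (GRCh38.p14). Words were printed with 15 bases each side, or with at most 30 bases in all where the longer window touched an annotated exon. The shortened windows of CANX, HSP90B1, HSPA8, HSP90AA1, DNAJA1 and CHORDC1 still lay wholly in annotated exons. The test was checked on simulated data in which few genes changed, so the check does not cover data where most genes are called, as here. Alternatives were other scaling (RLE, upper quartile, none), other low-count filters (none, 1 CPM in 3 libraries), other tests (DESeq2 1.42.0, limma-voom of limma 3.58.1), a block for the replicate number, dropping each of 6 libraries in turn, and HSPA1A summed with HSPA1B.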

Additional observations from a re-analysis of the deposited data

How the results depend on the processing

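Of the 36 members tested, 26 had the same direction and side of the threshold in all 15 alternatives, and ERN1, which was called in none, had log2 fold changes of -0.10 to 0.030. A further 6 lost their call in at least 1 alternative and 3 gained it in at least 1, all of which are given with the genes above. Summing HSPA1A with HSPA1B could change nothing, since HSPA1B was at 0, which leaves 14 alternatives that could. In none of the 15 alternatives did a called member change direction. Under upper-quartile scaling, which moved the median of all genes to 0.04 on the log2 scale, the median log2 fold change was -0.032 over the ER members and 0.15 over the cytosolic members. Leaving out a library in turn gave medians of -0.11 to -0.021 over the ER members and 0.093 to 0.13 over the cytosolic members. ER members called lower numbered 6 to 10 across the same libraries left out, 6 without shTRIP6 replicate 1, and the cause was not tested beyond the genes named above. Deviations of same-numbered libraries from their group means correlated at -0.0234, -0.0448 and -0.0258. The labels do not say whether same-numbered libraries belong together, and such correlations over all genes cannot exclude a shared preparation. With the replicate number as a block, 7 ER members were higher and 10 were lower, and 6 cytosolic members were higher and 5 were lower, the loss being FKBP4. Counting of HSPA1A and HSPA1B, of overlapping exons and of pseudogenes, which GENCODE 29 lists for 9 members and up to 17 for HSPA8, limits single values. On depth, the lowest member tested, ERN1, averaged 14.2 CPM in shTRIP6.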

Other observations

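Lists of mitochondrial chaperones and of the cytosolic chaperonin, outside the systems above, also held both higher and lower genes. Of 16 mitochondrial chaperone and protease genes tested, 4 were higher and 6 were lower, with a median log2 fold change of 0.03. TRAP1, the mitochondrial Hsp90, stood at 98.1 ± 2.06 CPM over the shTRIP6 libraries and 131 ± 0.854 CPM over the shControl libraries (log2 fold change of -0.42, SE 0.048, adjusted p = 5.63e-07). GRPEL1, an exchange factor of mitochondrial Hsp70, stood at 64.1 ± 3.08 CPM over the shTRIP6 libraries and 48.3 ± 1.56 CPM over the shControl libraries (log2 fold change of 0.41, SE 0.061, adjusted p = 1.28e-05). The protease genes HTRA2 and CLPX had log2 fold changes of 0.38 and -0.32, and exons of HTRA2 overlap those of AUP1 on the other strand, whose counts came to 259% of its own. Exons of TRAP1 overlap 1531 bases of DNASE1 on the other strand, whose counts came to 4.54% of its own.

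A list of 16 tested genes held the chaperonin TRiC and prefoldin, which fold actin and tubulin, and phosducin-like co-chaperones. Of these 16 genes, 10 were higher and 4 were lower. Their median log2 fold change was 0.18, beside 0.00 over all genes tested. Among all genes tested at 10 CPM or more, 34.0% were higher and 32.2% were lower. CCT6A, a TRiC subunit, stood at 445 ± 8.86 CPM over the shTRIP6 libraries and 378 ± 2.92 CPM over the shControl libraries (log2 fold change of 0.23, SE 0.041, adjusted p = 6.20e-05), and CCT4, another, had a log2 fold change of 0.23. Exons of CCT4 overlap 81 bases of COMMD1, whose counts came to 4.13% of its own. PDCL, a phosducin-like co-chaperone of TRiC, was lower, at 28.2 ± 2.17 CPM over the shTRIP6 libraries and 47.9 ± 0.291 CPM over the shControl libraries (log2 fold change of -0.76, SE 0.072, adjusted p = 3.38e-08), and the prefoldin subunit gene PFDN4 had a log2 fold change of -0.46.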
